A study of Mus musculus with 8 samples.

Results

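The comparison described here is that of Evx1as knockout (KO) cells with wild-type (WT) cells after 4 days of differentiation, taken across all genes with measurable RNA. Evx1as is a long noncoding RNA transcribed next to Evx1, the gene of a homeobox protein that is made in the primitive streak. The cells were of the mouse embryonic stem cell line CJ9 (strain 129S4/SvJae), and every group had been grown until day 4 after withdrawal of leukemia inhibitory factor, a cytokine that keeps such cells from differentiating. There were 2 WT libraries and 3 libraries labelled Evx1as KO, and 3 libraries labelled EVX1 KO entered the fit so that the groups shared an estimate of the spread. The knockouts were made by CRISPR according to the title of the series. The sources used here give neither the position of the edit nor whether each knockout is a single clone. Genes were included when they reached 1 FPKM (fragments scaled to transcript length and library size) in at least 2 of the 5 WT and Evx1as KO libraries, which gave 12833 of the 38610 symbols in the deposited table. The series was designed to find genes that change with loss of the RNA during differentiation. Genes on the lists of streak, mesoderm, endoderm, epiblast and early neural markers made up 78 of the 3262 calls and are not described. The account covers the other functions of the cell: translation, growth, metabolism, cytoskeleton, adhesion, stress and secreted signals.

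Embryonic stem cells that lose leukemia inhibitory factor leave self-renewal, pass through a state like the epiblast and enter several lineages at once, so a bulk library at day 4 is an average over a mixed culture. Growing cells spend much of their RNA on ribosomal proteins and elongation factors. Cells that spread on a surface hold it through integrins joined to matrix outside and to actin filaments inside. Long noncoding RNAs that lie beside a developmental gene are known in several loci to affect the level of that neighbour.

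The targeted RNA was nearly absent from the libraries labelled Evx1as KO. Evx1as (5730457N03Rik, chr6:52258382-52264826 in the deposited table) stood at 5.36 and 6.75 FPKM in WT and 0.0549, 0.104 and 0.0485 FPKM in Evx1as KO, and its log2 fold change was -2.72 ± 0.20, adjusted p = 3.11e-04. The libraries labelled EVX1 KO held it at 5.01, 8.81 and 7.39 FPKM, 1 library below and 2 above the WT range. Evx1 itself (chr6:52263491-52268372) stood at 21.97 and 31.2 FPKM in WT and 2.45, 3.84 and 0.541 FPKM in Evx1as KO, with a log2 fold change of -3.20 ± 0.41, adjusted p = 0.00174. Its RNA stood at 26.3, 20.8 and 31.7 FPKM in the 3 libraries labelled EVX1 KO, near the WT levels. The RNA level thus shows no loss of Evx1 there, and whether its protein was lost cannot be read from RNA. The Evx1as KO and WT libraries did not overlap for either gene. The printed positions of Evx1as and Evx1 overlap, and the strand setting behind FPKM is not known. Their levels may therefore not be fully separate measurements. Here and below, a fold change is the difference of group means of log2(FPKM + 1), Evx1as KO minus WT, with its standard error, and the added 1 FPKM shrinks the change of genes at low level. Adjusted p-values come from limma with Benjamini-Hochberg adjustment over the 12833 genes, and an adjusted p under 0.05 is a call. The sources do not say that replicates were separate cultures, so p-values measure only the spread between these libraries.

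Summed FPKM ranged from 538205 to 587798 over the 5 libraries and 12244 to 12442 genes reached 1 FPKM. Absolute depth is unknown because the values are FPKM. Steps between low values put relative depth at 0.863 to 1.19 times that of WT replicate 1. The WT libraries correlated at r = 0.987 with each other over genes, and Evx1as KO replicate 2 was nearer to WT (r = 0.966 to 0.967) than replicates 1 and 3 (0.949 to 0.950). Genes of chromosome 14 had a median difference from WT of 0.12 in Evx1as KO replicate 1, -0.35 in replicate 2 and -0.36 in replicate 3, a split within 1 group. Genes of chromosome 8 had medians of 0.11, 0.09 and 0.10. Chromosome 1 had 93 rises and 146 falls among 697 genes tested, with medians of -0.040, -0.016 and -0.053. Of the genes named below, Acadl, Adam23, Atf3, Bard1, Csrp1, Eef1b2, F11r, Fn1, Hsd17b7, Ier5, Mcm3, Nrp2, Phlda3, Plxna2, Ptgs2, Rpl31, Rpl7, Snhg6, Steap3, Tgfb2 and Wnt6 lie on chromosome 1. Genes on chromosomes 8 and 14 are marked where named, and the part of these shifts in their values was not tested. Pou5f1, the defining factor of pluripotent cells, stood at 308 and 328 FPKM in WT and 458, 431 and 380.4 FPKM in Evx1as KO, a rise of 0.41 ± 0.11, adjusted p = 0.0256 that was lost with no minimum level, without WT replicate 1, without WT replicate 2, without Evx1as KO replicate 1 and without Evx1as KO replicate 2. Of 14 macrophage markers 12 stayed under 1 FPKM in all 5 libraries, as did 11 of 12 markers of primitive red blood cells, and the embryonic globins Hba-x, Hbb-y and Hbb-bh1 were listed at 0. Of 15 markers of fibroblasts or feeder cells, 5 stayed under 1 FPKM. The sum of the 15 was 42.3 to 57.4 FPKM in WT and 40.4 to 62.1 in Evx1as KO. The 9 tested had a median log2 fold change of -0.47, with 1 called higher and 2 lower.

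Loss of Evx1as went with changes in about as many genes upward as downward. Calls were made for 3262 genes, which is 25.4% of those tested, and 1750 of them (13.6%) were higher and 1512 (11.8%) lower in Evx1as KO. For each called gene the groups did not overlap, as for 56.2% of all genes tested. Non-overlap of a gene named below is therefore no support beyond its call. Most changes were modest: the median was 0.66 among higher genes and -0.68 among lower genes, and 307 higher and 350 lower genes passed 1 on the log2 scale. Large changes were more often falls, with 54 falls and 23 rises past 2 and 8 falls and 0 rises past 3. Of the 9571 genes not called, 8686 had a 95% interval within -1 to 1. The number of calls depends on the few libraries, since it was 812 higher and 632 lower without WT replicate 1, 818 and 742 without WT replicate 2, 1100 and 1066 without Evx1as KO replicate 1, and 983 and 891 without Evx1as KO replicate 3. A core of 910 genes, 483 higher and 427 lower, was called in the same direction under each of the 20 alternative analyses that tested them. Genes named below belong to this core unless the text says otherwise. Small counts within gene lists were unsteady: of 98 list counts of 1 to 5 calls in a direction, 94 moved by more than 1.5 times in at least 1 alternative.

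**Figure D1:**
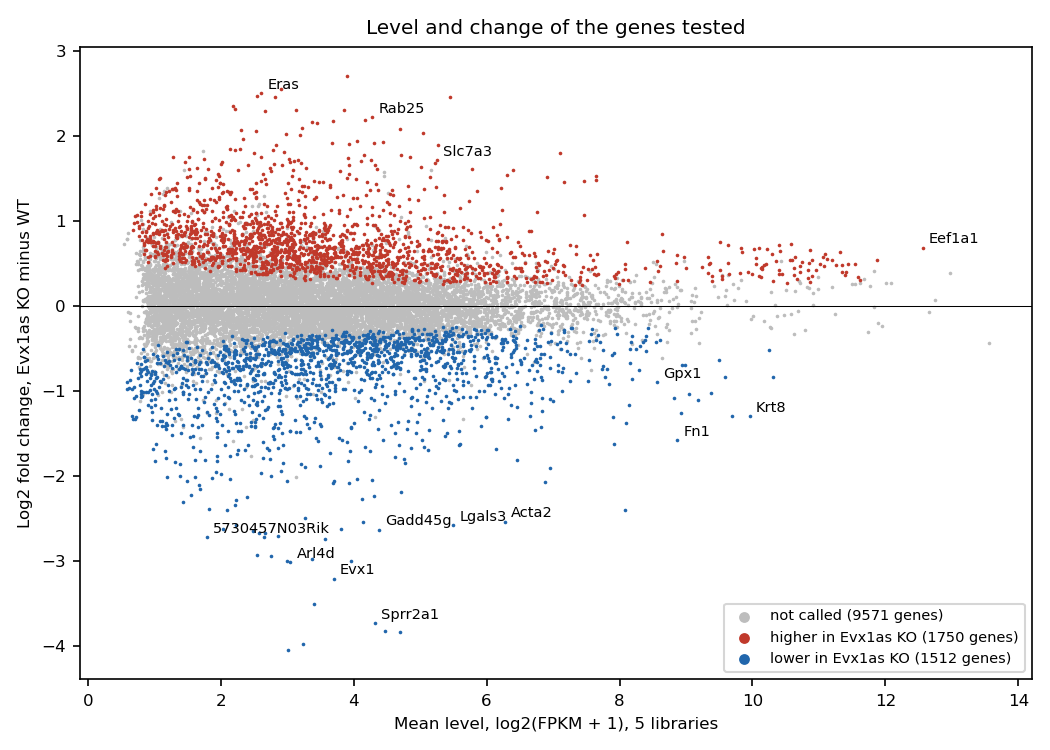
Each point is 1 of the 12833 genes tested, placed by its mean level over the 5 libraries (x axis, log2(FPKM + 1)) and its log2 fold change (y axis, Evx1as KO minus WT). Red points are the 1750 genes called higher and blue points the 1512 called lower. The falls extend farther from 0 than the rises, and the called genes at the highest levels lie mostly above 0.

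Among genes outside the lineage lists, the largest rises were enzymes, transporters and membrane regulators at low level in WT. Eras, a Ras-family GTPase made by embryonic stem cells, stood at 0.577 and 0.606 FPKM in WT and 6.87, 7.28 and 10.2 FPKM in Evx1as KO (2.50 ± 0.29, adjusted p = 0.00131). Pipox, a peroxisomal oxidase of pipecolic acid and sarcosine, stood at 0.65 and 0.479 FPKM in WT and 7.45, 7.48 and 8.09 FPKM in Evx1as KO (2.47 ± 0.14, adjusted p = 2.29e-04). Both genes were below 1 FPKM in each WT library and above 6 FPKM in each Evx1as KO library. Slc27a2, a very long-chain acyl-CoA synthetase that takes up fatty acids, stood at 2.02 and 4.58 FPKM in WT and 19.3, 17.1 and 16.2 FPKM in Evx1as KO (2.17 ± 0.23, adjusted p = 9.74e-04). Rab25, a GTPase of membrane recycling in epithelial cells, stood at 4.41 and 5.68 FPKM in WT and 24.8, 24.03 and 32.8 FPKM in Evx1as KO (2.22 ± 0.18, adjusted p = 4.06e-04). Its lowest Evx1as KO library was more than 4-fold above the higher WT library. Cytidine deaminase (Cda) stood at 1.85 and 2.24 FPKM in WT and 16.02, 7.45 and 14.2 FPKM in Evx1as KO (2.10 ± 0.26, adjusted p = 0.00165), and replicate 2 was the lowest of the knockout libraries. The membrane carbonic anhydrase Car14 stood at 5.02 and 0.981 FPKM in WT and 14.04, 11.3 and 18.4 FPKM in Evx1as KO (2.15 ± 0.39, adjusted p = 0.00613), with the WT libraries themselves apart. Its relative Car4 rose too (2.46 ± 0.58, adjusted p = 0.0157), from 7.17 and 13.1 FPKM in WT to 46.3, 38.3 and 109 FPKM in Evx1as KO, but this call was lost without WT replicate 1 and with no minimum level. The nucleotide pyrophosphatase Enpp3 rose by 2.02 ± 0.21.

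Secreted and regulatory genes stood beside them. The chemokine Cxcl12 stood at 0.589 and 1.49 FPKM in WT and 7.64, 6.55 and 7.59 FPKM in Evx1as KO (2.05 ± 0.21, adjusted p = 9.87e-04). Myb, a transcription factor of immature blood and other progenitors, stood at 0.288 and 0.439 FPKM in WT and 4.56, 5.60 and 7.42 FPKM in Evx1as KO (2.31 ± 0.20, adjusted p = 5.29e-04). Myb was at 0.107, 0 and 0.146 FPKM and Cxcl12 at 0.641, 0.219 and 0.511 FPKM in the libraries labelled EVX1 KO, so neither gene reached 1 FPKM there. Hif3a, a hypoxia-inducible factor, stood at 2.46 and 2.14 FPKM in WT and 14.5, 10.2 and 17.4 FPKM in Evx1as KO (2.16 ± 0.25, adjusted p = 0.00128) and at 8.02, 5.44 and 4.29 FPKM in the libraries labelled EVX1 KO. The forkhead factor Foxi3 stood at 8.83 and 12.3 FPKM in WT and 55.4, 43.7 and 39.2 FPKM in Evx1as KO (2.03 ± 0.17, adjusted p = 5.35e-04). Ndrg2, on chromosome 14, rose by 2.30 ± 0.34 and was higher in replicate 1 (15.3 FPKM) than in replicates 2 and 3 (7.84 and 12.4). Sfrp1 on chromosome 8, a secreted Wnt antagonist, rose by 2.45 ± 0.38. The phosphatase inhibitor Ppp1r1a rose by 2.08 ± 0.37, a call lost without WT replicate 1.

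The largest falls were of genes that were readily measured in WT, and many of them were near 0 in some knockout libraries. Gadd45g, Lgals3, Acta1 and Acta2 kept higher levels. Sprr2a1, a small proline-rich protein of the cornified envelope, stood at 48.99 and 35.5 FPKM in WT and 0.357, 7.75 and 1.85 FPKM in Evx1as KO (-3.72 ± 0.62, adjusted p = 0.00421). Arl4d, an Arf-like GTPase of the plasma membrane, stood at 17.5 and 15.2 FPKM in WT and 1.000, 2.01 and 0.664 FPKM in Evx1as KO (-3.01 ± 0.23, adjusted p = 3.29e-04). Cyp26a1, which breaks down retinoic acid, stood at 17.2 and 23.98 FPKM in WT and 0.844, 3.01 and 1.74 FPKM in Evx1as KO (-2.97 ± 0.28, adjusted p = 6.87e-04). In each of these genes replicate 2 kept the highest level of the knockout libraries, and no knockout library reached the WT range. Six2, a homeobox factor of kidney and head mesenchyme progenitors, stood at 16.3 and 9.68 FPKM in WT and 0.39, 1.84 and 0.413 FPKM in Evx1as KO (-2.94 ± 0.34, adjusted p = 0.00127). Ptgs1, the constitutive cyclooxygenase, stood at 12.9 and 7.78 FPKM in WT and 0.559, 1.53 and 0.396 FPKM in Evx1as KO (-2.64 ± 0.28, adjusted p = 9.87e-04). Ptgs2, the inducible form, fell as well (-1.51 ± 0.25, adjusted p = 0.00383), from 2.65 and 3.17 FPKM in WT to 0.189, 0.787 and 0.201 FPKM in Evx1as KO. Gadd45g, a stress and growth-arrest gene, stood at 38.5 and 42.4 FPKM in WT and 3.51, 7.88 and 6.51 FPKM in Evx1as KO (-2.63 ± 0.31, adjusted p = 0.00147) and at 8.97, 16.6 and 16.7 FPKM in the libraries labelled EVX1 KO. Cdkn2a, which encodes the cell-cycle inhibitors p16Ink4a and p19Arf, stood at 18.6 and 17.4 FPKM in WT and 1.68, 2.46 and 3.19 FPKM in Evx1as KO (-2.49 ± 0.23, adjusted p = 6.18e-04). The libraries labelled EVX1 KO held Cdkn2a at 2.82, 3.10 and 4.88 FPKM, and both groups are set against the same WT libraries.

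Lgals3, which encodes the glycan-binding galectin-3, lies on chromosome 14 and stood at 108 and 70.1 FPKM in WT and 14.4, 18.9 and 9.54 FPKM in Evx1as KO (-2.57 ± 0.25, adjusted p = 8.60e-04). The chromosome 14 median was above 0 in replicate 1 and below 0 in replicates 2 and 3. On chromosome 8, the transcriptional cofactor Zfp703 stood at 37.98 and 25.00 FPKM in WT and 1.51, 5.64 and 2.84 FPKM in Evx1as KO (-2.99 ± 0.37, adjusted p = 0.00165) and the mesenchymal cadherin Cdh11 at 12.1 and 4.91 FPKM in WT and 0.484, 0.457 and 0.493 FPKM in Evx1as KO (-2.57 ± 0.45, adjusted p = 0.00511). The chromosome's median was above 0 in each knockout library. Isg20, an interferon-induced RNA exonuclease, stood at 8.004 and 7.91 FPKM in WT and 0.999, 0.786 and 0.75 FPKM in Evx1as KO (-2.28 ± 0.25, adjusted p = 9.89e-04). The growth factor Fgf3 was listed at 0 in 2 Evx1as KO libraries and at 0.140 FPKM in the other, against 4.21 and 4.08 FPKM in WT (-2.30 ± 0.26, adjusted p = 0.00118). Grrp1 fell as well (-2.67 ± 0.21). Symbols without a gene name were passed over in choosing the named genes, namely 5 among the rises and 2 among the falls.

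**Figure D2:**
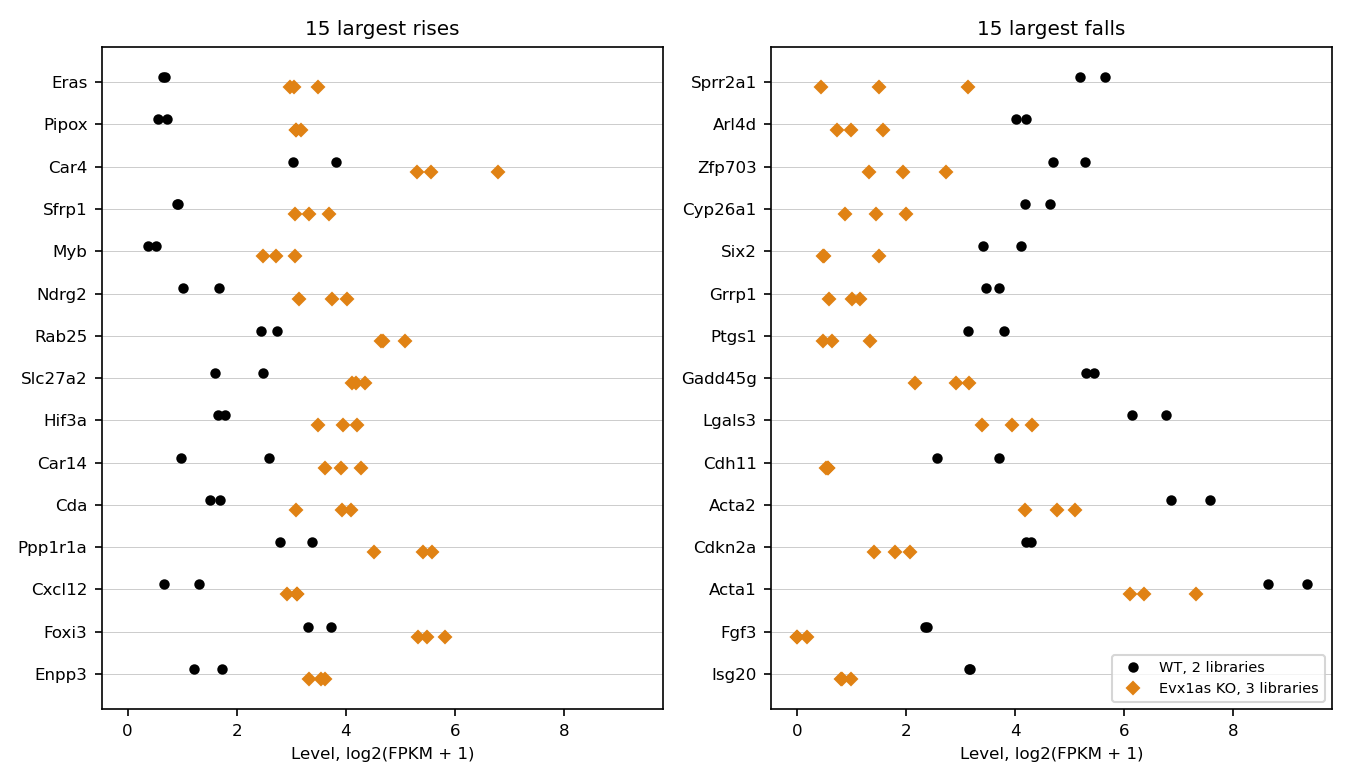
Level of the 15 largest rises (left) and 15 largest falls (right) outside the lineage lists, as log2(FPKM + 1) on the x axis, with 1 gene a line. Black circles are the 2 WT libraries and orange diamonds the 3 Evx1as KO libraries. The groups do not overlap in any of the 30 genes, which was a condition for being shown. Among the falls Sprr2a1 and Zfp703 show the widest spread between knockout libraries.

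Most mRNAs of cytosolic ribosomal proteins rose. Of 78 tested genes for these subunits, 60 rose, 1 fell and 17 were not called, with a median log2 fold change of 0.44 against 0.02 over all genes tested. The medians in the 3 knockout libraries were 0.51, 0.32 and 0.51. Together these genes held 17.6% of summed FPKM in both WT libraries and 23.1%, 21.0% and 22.7% in Evx1as KO, and 18.3% to 18.8% in the libraries labelled EVX1 KO. The number of rises was 30 with quantile normalization, 34 without WT replicate 1 and 35 without WT replicate 2, and the median under quantile normalization was 0.20. The median stayed above 0 under median-ratio scaling (0.42) and quantile normalization alike. Under quantile normalization Rpl23a and Rpl35 changed sign, to -0.036 and -0.017. The single fall, Rpl10l, is a copy of Rpl10 at low level and its call was lost with a pseudocount of 0.1, with a minimum of 5 FPKM and without either WT library. Many ribosomal protein genes have pseudogene copies, so their single values are uncertain.

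Large and small subunits took part. Rps12, of the small subunit, stood at 3003 and 2881 FPKM in WT and 4317, 4139 and 4381 FPKM in Evx1as KO (0.54 ± 0.08, adjusted p = 0.00338). Rps4x, on the X chromosome, stood at 481 and 559.8 FPKM in WT and 912, 835 and 872 FPKM in Evx1as KO (0.75 ± 0.09, adjusted p = 0.00131). Rpl31, of the large subunit, stood at 639 and 502 FPKM in WT and 1002, 831 and 970.2 FPKM in Evx1as KO (0.72 ± 0.12, adjusted p = 0.00422). In all of these the lowest knockout library was above the higher WT library, and replicate 2 was the lowest of the knockout libraries. Further subunits in the core were Rps18 (0.66 ± 0.10), Rps6 (0.57 ± 0.08), Rpl3 (0.65 ± 0.10), Rpl7 (0.72 ± 0.08), Rpl5 (0.47 ± 0.07) and Rpl11 (0.54 ± 0.10). The elongation factor Eef1a1, which brings charged tRNA to the ribosome and was the highest called gene, stood at 4490.3 and 4333 FPKM in WT and 7479, 6224 and 7676 FPKM in Evx1as KO (0.69 ± 0.11, adjusted p = 0.00404), a call lost under quantile normalization. Eef1b2, which recharges it with GTP, stood at 367 and 342 FPKM in WT and 578, 505 and 535 FPKM in Evx1as KO (0.60 ± 0.08, adjusted p = 0.00227). The initiation factor Eif4b, which helps the unwinding of mRNA 5′ ends, stood at 148 and 155 FPKM in WT and 245, 206 and 250.2 FPKM in Evx1as KO (0.61 ± 0.10, adjusted p = 0.00353). Of 52 genes with symbols of initiation factors, 8 rose and 5 fell, with a median of 0.03. The 25.0% called is near the 25.4% of all genes. Without 1 library at a time the rises ran from 1 to 10 and the falls from 0 to 5, both lowest without WT replicate 2.

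Genes that build the ribosome or serve the mitochondrial one had shares of calls near or under the 25.4% of all genes. Of 50 ribosome biogenesis factors 2 rose and 2 fell (8% called), with a median of -0.07. Of 76 mitochondrial ribosomal proteins 9 rose and 7 fell, with a median of 0.00, and the 21.1% called is near the 25.4% of all genes. Their rises numbered 2 without WT replicate 2 and 2 without Evx1as KO replicate 3, and their falls 0 without WT replicate 1. Over all fits without 1 library the rises ran from 2 to 8 and the falls from 0 to 8. Of 20 aminoacyl-tRNA synthetases 2 rose, Sars and Lars, and 0 fell by limma (10% called). The call of Lars was lost without WT replicate 1 and that of Sars without WT replicate 2. These differences between lists were not tested.

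**Figure D3:**
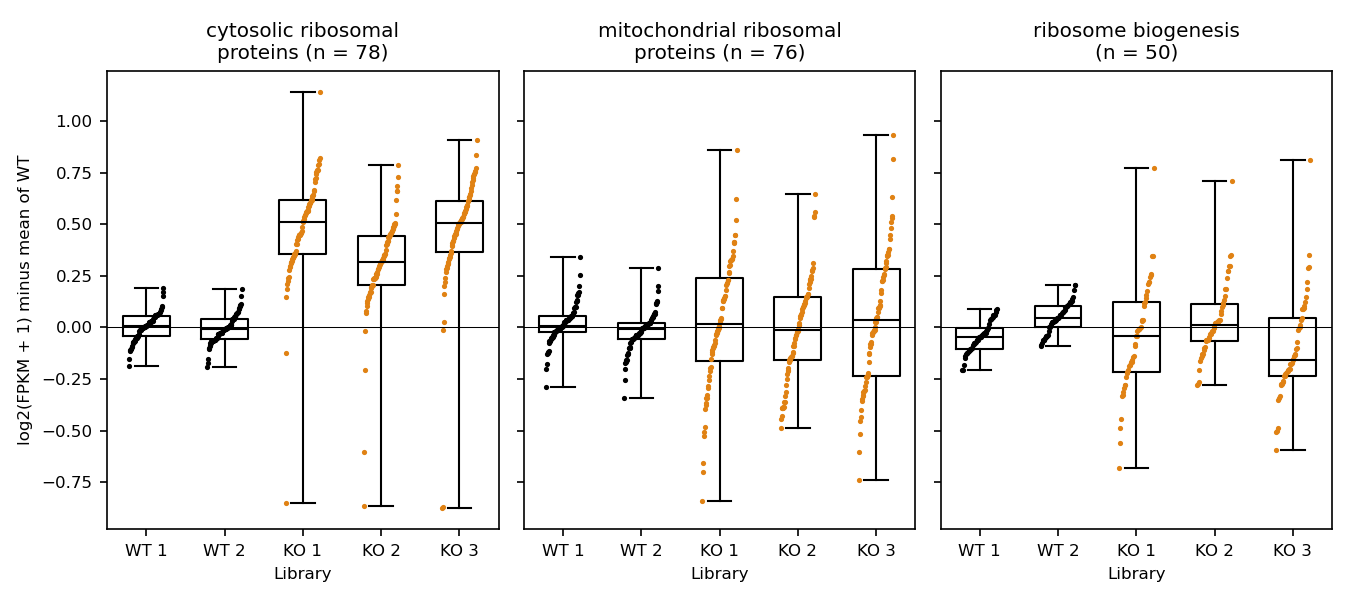
Each panel gives 1 gene list, and each point is 1 gene's log2(FPKM + 1) in a library minus the mean of the 2 WT libraries (y axis), in rank order within the library (x axis, WT in black, Evx1as KO in orange). Boxes span the quartiles with the median as a line, and whiskers reach the extremes. The cytosolic ribosomal proteins have medians of 0.51, 0.32 and 0.51 in the knockout libraries, while those of the mitochondrial ribosomal proteins are 0.02, -0.01 and 0.04 and those of ribosome biogenesis -0.04, 0.01 and -0.16.

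Messenger RNAs of ribosomal proteins and elongation factors are known to begin with a C followed by a run of pyrimidines, the 5′ terminal oligopyrimidine, through which their translation is regulated. Ribosomal protein genes were examined because most of this family rose. The start regions of 6 called members above 500 FPKM are shown, picked as 4 with such a start and 2 without. Each region has 15 bases on each side of the annotated start (RefSeq, GRCm38.p6). The C and the pyrimidines that follow it are in capitals. The first 4 hold such a start within 2 bases of position 1 and the last 2 hold none there. This split was set by the choice of genes and is not the share in the family, which is given after the sequences.
Rps18 (chr17:33955651-33955680, minus strand): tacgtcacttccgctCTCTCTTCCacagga
Rpl28 (chr7:4792950-4792979, plus strand): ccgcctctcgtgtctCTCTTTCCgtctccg
Rps6 (chr4:86857353-86857382, minus strand): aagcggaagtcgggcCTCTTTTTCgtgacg
Rps21 (chr2:180257364-180257393, plus strand): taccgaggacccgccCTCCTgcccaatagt
Rps4x (chrX:102189377-102189406, minus strand): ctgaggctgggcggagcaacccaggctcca
Rpl31 (chr1:39367836-39367865, plus strand): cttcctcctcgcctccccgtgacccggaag
A C followed by at least 4 pyrimidines, on the gene's strand and within 2 bases of the start, was present in 16 of 45 rising ribosomal protein genes with a promoter in the table (35.6%), in 3 of 12 not called (25.0%) and in 10.1% of the 8675 genes tested that have one. Mitochondrial ribosomal proteins held it in 10.4% and ribosome biogenesis factors in 6.82%. A single annotated start stands for each gene, so a missing match says only that these letters are not at this start.

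Called genes of DNA replication and repair were mostly higher in Evx1as KO. Of 49 tested replication genes 18 rose and 0 fell by limma, with a median of 0.26. The rises numbered 7 without WT replicate 1, 7 without WT replicate 2 and 8 without Evx1as KO replicate 3. Pold2, a subunit of DNA polymerase delta, stood at 28.6 and 28.3 FPKM in WT and 76.2, 58.1 and 71.1 FPKM in Evx1as KO (1.23 ± 0.12, adjusted p = 6.87e-04). Pold3, another subunit, rose by 0.80 ± 0.11, and Mcm3, part of the replicative helicase, rose by 0.60 ± 0.09 from 152 and 134 FPKM in WT to 223, 209 and 221 FPKM in Evx1as KO. Of 64 repair genes 20 rose and 2 fell, and the rises numbered 12 without WT replicate 1, 12 without WT replicate 2 and 13 without Evx1as KO replicate 3. Msh6, which takes part in finding mismatched bases, stood at 25.1 and 30.1 FPKM in WT and 47.4, 45.4 and 48.9 FPKM in Evx1as KO (0.76 ± 0.10, adjusted p = 0.00213). The groups were clearly apart for this gene, with knockout libraries close together. The glycosylase Neil3, on chromosome 8, rose by 1.34 ± 0.16, and the recombination genes Brca2 (0.61 ± 0.11), Bard1 (0.86 ± 0.13), Fancd2 (0.63 ± 0.10) and Rad50 (0.63 ± 0.10) rose less. Ercc1, of nucleotide excision repair, fell (-0.64 ± 0.10, adjusted p = 0.00338).

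Of 52 mitotic genes 15 rose and 1 fell (30.8% called, against 25.4% of all genes), with a median of 0.22. The rises numbered 3 without WT replicate 1, 8 without WT replicate 2, 9 without Evx1as KO replicate 1 and 7 without Evx1as KO replicate 3. Those in the core were the checkpoint kinase Bub1b (0.57 ± 0.09), the spindle protein Nusap1 (0.64 ± 0.10) and the condensin subunit Ncapd2 (0.51 ± 0.09). Set against the WT mean, the medians of the mitotic list were 0.24, 0.16 and 0.28 in Evx1as KO. They were 0.24, 0.19 and 0.10 in the libraries labelled EVX1 KO. Of 29 cyclins, inhibitors and their regulators 9 fell and 1 rose, and the falls numbered 5 without WT replicate 2 and 5 without Evx1as KO replicate 3. Cdkn2b, the neighbour of Cdkn2a, fell from 3.52 and 3.86 FPKM in WT to 0.372, 0.936 and 1.10 FPKM in Evx1as KO (-1.40 ± 0.20, adjusted p = 0.00239). Cdkn1c, an imprinted inhibitor, stood at 31.4 and 25.6 FPKM in WT and 9.95, 11.96 and 10.2 FPKM in Evx1as KO (-1.33 ± 0.23, adjusted p = 0.00459). Cdkn1a stood at 130.4 and 131 FPKM in WT and 74.1, 81.1 and 76.6 FPKM in Evx1as KO (-0.75 ± 0.08, adjusted p = 0.00113), and cyclin D1 (Ccnd1), which drives entry into the cycle, also fell (-0.86 ± 0.16, adjusted p = 0.00681). Of 35 p53 targets 15 fell and 3 rose, and the falls numbered 9 without WT replicate 1. The medians of this list were -0.22, -0.34 and -0.25 in Evx1as KO. In the libraries labelled EVX1 KO they were -0.14, -0.27 and -0.23. Besides Cdkn1a the falls held Phlda3, an inhibitor of Akt, at 192 and 185 FPKM in WT and 73.1, 96.6 and 90.2 FPKM in Evx1as KO (-1.12 ± 0.12, adjusted p = 9.35e-04) and Mdm2, the ubiquitin ligase of p53, at 94.1 and 88.98 FPKM in WT and 46.3, 54.1 and 50.5 FPKM in Evx1as KO (-0.85 ± 0.09, adjusted p = 9.87e-04).

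Among called genes of sterol, fatty acid, glycine and nucleotide metabolism, rises outnumbered falls. Of 26 genes of cholesterol synthesis and uptake 11 rose and 1 fell, with a median of 0.36. The rises numbered 6 without WT replicate 1. Set against the WT mean, the list's medians were 0.42, 0.31 and 0.38 in the Evx1as KO libraries. They were 0.32, 0.33 and 0.47 in the libraries labelled EVX1 KO, which are set against the same WT libraries. The steps run from Hmgcs1, which makes the precursor of mevalonate, at 72.8 and 88.4 FPKM in WT and 123, 119 and 121 FPKM in Evx1as KO (0.58 ± 0.09, adjusted p = 0.00381). Mvd, which decarboxylates mevalonate diphosphate and lies on chromosome 8, stood at 21.9 and 19.3 FPKM in WT and 49.1, 37.7 and 44.04 FPKM in Evx1as KO (1.04 ± 0.17, adjusted p = 0.00353). Fdps and Lss, which join isoprenes and close the sterol ring, rose by 0.71 ± 0.11 and 0.71 ± 0.13. Dhcr7, the last step to cholesterol, stood at 14.2 and 17.8 FPKM in WT and 42.3, 28.7 and 36.5 FPKM in Evx1as KO (1.11 ± 0.17, adjusted p = 0.00329). For each of these the knockout libraries lay above both WT libraries. The exception was Hsd17b7, a reductase of the same pathway, at 7.85 and 7.52 FPKM in WT and 2.29, 2.87 and 2.02 FPKM in Evx1as KO (-1.36 ± 0.14, adjusted p = 8.67e-04).

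Of 38 fatty acid genes 11 rose and 5 fell, and the rises numbered 7 without WT replicate 1. The desaturases led: Scd1 stood at 11.1 and 12.1 FPKM in WT and 29.7, 25.2 and 30.5 FPKM in Evx1as KO (1.22 ± 0.11, adjusted p = 5.47e-04) and Fads2 at 37.4 and 48.3 FPKM in WT and 95.6, 78.4 and 109.7 FPKM in Evx1as KO (1.12 ± 0.16, adjusted p = 0.00269), and Fads1 rose by 0.77 ± 0.12. The elongase Elovl5, which works with them on polyunsaturated chains, rose by 0.41 ± 0.08. The mitochondrial dehydrogenase Acadl (0.60 ± 0.09) and the acyl-CoA ligase Acsl4 (0.77 ± 0.14) rose as well, and the acyltransferase Agpat9 fell (-1.25 ± 0.21). Acly, which supplies cytosolic acetyl-CoA to both pathways, stood at 72.02 and 72.6 FPKM in WT and 104, 95.04 and 98.9 FPKM in Evx1as KO (0.45 ± 0.08, adjusted p = 0.00609).

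Of 32 genes of serine, glycine, threonine and folate metabolism 12 rose and 3 fell, and the rises numbered 6 without WT replicate 1. Gldc, the glycine decarboxylase, stood at 23.02 and 23.5 FPKM in WT and 51.9, 51.3 and 50.03 FPKM in Evx1as KO (1.10 ± 0.09, adjusted p = 5.37e-04). Gcat, which splits the product of threonine dehydrogenase into glycine and acetyl-CoA, stood at 15.9 and 11.6 FPKM in WT and 30.9, 29.5 and 28.96 FPKM in Evx1as KO (1.07 ± 0.13, adjusted p = 0.00153). Cbs, which feeds homocysteine into cysteine synthesis, stood at 1.65 and 1.34 FPKM in WT and 7.23, 6.65 and 8.41 FPKM in Evx1as KO (1.75 ± 0.16, adjusted p = 6.87e-04). The knockout libraries of Gldc were nearly equal, and none of the 3 genes had overlapping groups. The transaminases Bcat2 (0.93 ± 0.13) and Gpt2 on chromosome 8 (1.24 ± 0.19) rose too. Slc7a3, a carrier of arginine and lysine, stood at 14.5 and 15.8 FPKM in WT and 55.5, 48.9 and 51.3 FPKM in Evx1as KO (1.71 ± 0.11, adjusted p = 2.29e-04), and the glutamate carrier Slc1a3 rose by 1.10 ± 0.17. Slc16a10, a carrier of aromatic amino acids, fell from 12.6 and 15.03 FPKM in WT to 3.58, 5.94 and 3.64 FPKM in Evx1as KO (-1.48 ± 0.20, adjusted p = 0.00216). Among nucleotide genes 8 of 38 rose and 3 fell (28.9% called, near the 25.4% of all genes), and the rises numbered 5 without WT replicate 1, 4 without Evx1as KO replicate 1 and 5 without Evx1as KO replicate 3. Paics of purine synthesis rose by 0.49 ± 0.08, Prps1, which makes the ribose donor, by 0.79 ± 0.12, and the kinase Nme4 by 0.97 ± 0.15.

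Glycolytic and hypoxia-response genes rose in 15 of 41 cases and fell in 2, and the rises numbered 9 with no minimum level, 6 without WT replicate 1, 5 without WT replicate 2, 9 without Evx1as KO replicate 1 and 8 without Evx1as KO replicate 3. Pfkm, the muscle isoform of phosphofructokinase, stood at 13.4 and 9.35 FPKM in WT and 31.7, 25.1 and 32.2 FPKM in Evx1as KO (1.32 ± 0.18, adjusted p = 0.00202). Pdk1, a kinase that inhibits pyruvate dehydrogenase, stood at 5.18 and 5.34 FPKM in WT and 17.9, 12.99 and 15.8 FPKM in Evx1as KO (1.39 ± 0.25, adjusted p = 0.00609), and Eno1 rose by 0.54 ± 0.10. In the citric acid cycle the core held Suclg2 (0.82 ± 0.10). Genes of the respiratory chain had shares of calls near or under the 25.4% of all genes. Of 45 genes with symbols that start Nduf 7 rose and 3 fell (22.2% called, median 0.05). Of 17 ATP synthase genes 2 rose and 1 fell (17.6%).

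Metal and redox genes changed in both directions. The metallothioneins Mt1 and Mt2, neighbours on chromosome 8 that bind zinc and copper, rose by 1.46 ± 0.36 (adjusted p = 0.0182) and 1.48 ± 0.40 (adjusted p = 0.026). Mt1 stood at 108 and 42.1 FPKM in WT and 166, 181 and 218 FPKM in Evx1as KO, and Mt2 at 159 and 54.3 FPKM in WT and 251, 242 and 295 FPKM in Evx1as KO. The WT libraries differed more than 2-fold from each other, and the call of Mt1 was lost with no minimum level, without WT replicate 2 and without Evx1as KO replicate 3 and that of Mt2 with no minimum level, without WT replicate 2, without Evx1as KO replicate 1 and without Evx1as KO replicate 3. The libraries labelled EVX1 KO were below both groups, with Mt1 at 10.3, 17.9 and 17.3 FPKM and Mt2 at 16.7, 12.99 and 25.3 FPKM. The sequences upstream of both genes are shown because of this shared pattern, 200 bases before the start (RefSeq, GRCm38.p6), with each copy of the core metal-response letters TGCACNC or TGCGCNC on either strand in capitals.
Mt1 (chr8:94178889-94179088, plus strand): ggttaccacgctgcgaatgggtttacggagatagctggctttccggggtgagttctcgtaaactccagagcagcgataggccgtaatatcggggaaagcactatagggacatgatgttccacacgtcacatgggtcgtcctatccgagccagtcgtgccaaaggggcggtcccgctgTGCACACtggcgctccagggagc
Mt2 (chr8:94172418-94172617, plus strand): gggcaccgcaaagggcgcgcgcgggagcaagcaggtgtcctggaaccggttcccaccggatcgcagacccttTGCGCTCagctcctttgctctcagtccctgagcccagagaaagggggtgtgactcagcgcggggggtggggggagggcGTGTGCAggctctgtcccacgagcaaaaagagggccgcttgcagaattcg
That core was present in 37.5% of all 8675 promoter windows of 300 bases. Slc39a8, a zinc importer, stood at 5.61 and 5.67 FPKM in WT and 19.05, 17.4 and 23.6 FPKM in Evx1as KO (1.65 ± 0.18, adjusted p = 9.87e-04), with knockout libraries more than 3-fold above both WT libraries. Steap3, a ferrireductase of iron uptake, stood at 6.60 and 7.43 FPKM in WT and 34.00, 22.1 and 34.03 FPKM in Evx1as KO (1.93 ± 0.17, adjusted p = 6.18e-04). Of 35 genes of oxidative defence 7 rose and 4 fell (31.4% called, against 25.4% of all genes). The rises numbered 4 without WT replicate 1 and 3 without Evx1as KO replicate 3. The glutathione transferases Gstt1 (1.70 ± 0.14, adjusted p = 3.74e-04) and Gsta4 (0.86 ± 0.13, adjusted p = 0.00308) rose, and Gpx1, the main cytosolic glutathione peroxidase, fell from 534 and 511 FPKM in WT to 287, 302 and 257 FPKM in Evx1as KO (-0.89 ± 0.09, adjusted p = 8.95e-04).

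Potassium channel genes rose in 5 of 16 cases, with 0 falls by limma. The rises numbered 9 with no minimum level and 1 with a minimum of 5 FPKM, and the falls 2 with no minimum level, 1 with only the 5 libraries in the fit and 1 without EVX1 KO replicate 1. They were Kcnip2 (1.60 ± 0.22), Kcnj3 (1.60 ± 0.19), Kcnq3 (1.48 ± 0.24), Kcnh2 (1.10 ± 0.18) and Kcnab3 (0.97 ± 0.16). The largest in absolute level, the inward rectifier subunit Kcnj3, stood at 3.20 and 2.40 FPKM in WT and 10.6, 8.52 and 12.6 FPKM in Evx1as KO. The calcium channel subunit Cacng7 stood at 16.2 and 15.9 FPKM in WT and 36.2, 35.05 and 48.2 FPKM in Evx1as KO (1.25 ± 0.13, adjusted p = 9.87e-04). Of 12 neuronal markers 7 stayed under 1 FPKM in all 5 libraries, and none of the 5 tested was called by limma.

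Called genes of the contractile cytoskeleton were mostly lower. Of 34 genes of contractile actin and myosin 16 fell and 2 rose, with a median of -0.49, and the falls numbered 9 with no minimum level, 7 without WT replicate 2, 9 without Evx1as KO replicate 1 and 9 without Evx1as KO replicate 3. Acta2, smooth muscle actin, stood at 115 and 189 FPKM in WT and 17.1, 33.1 and 26.4 FPKM in Evx1as KO (-2.53 ± 0.36, adjusted p = 0.00254). Csrp1, a LIM protein of stress fibres, stood at 418 and 445 FPKM in WT and 151, 193 and 154 FPKM in Evx1as KO (-1.38 ± 0.19, adjusted p = 0.00211). Flnc and Actn1, which crosslink actin, stood at 131 and 132 FPKM in WT and 50.8, 71.4 and 50.9 FPKM in Evx1as KO (-1.19 ± 0.18, adjusted p = 0.00334) and 399 and 396 FPKM in WT and 196, 253 and 210.1 FPKM in Evx1as KO (-0.86 ± 0.14, adjusted p = 0.00386). In all of these, replicate 2 was the highest of the knockout libraries and was below both WT libraries. Skeletal actin Acta1, on chromosome 8, stood at 648 and 398 FPKM in WT and 68.00, 158 and 81.3 FPKM in Evx1as KO (-2.40 ± 0.47, adjusted p = 0.00781), a call lost without WT replicate 1. The libraries labelled EVX1 KO held Acta2 at 32.5, 71.4 and 57.4 FPKM and Actn1 at 232, 294 and 306 FPKM.

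Many actin genes are controlled by serum response factor through the CArG box, CC, 6 A or T letters and GG. The 180 bases upstream of the 3 called members with such a box in this window are shown (RefSeq, GRCm38.p6), with the box in capitals.
Acta1 (chr8:123894776-123894955, minus strand): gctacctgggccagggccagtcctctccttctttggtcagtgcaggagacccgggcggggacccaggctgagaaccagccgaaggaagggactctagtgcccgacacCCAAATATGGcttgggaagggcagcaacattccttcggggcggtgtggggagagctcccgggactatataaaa
Actc1 (chr2:114052876-114053055, minus strand): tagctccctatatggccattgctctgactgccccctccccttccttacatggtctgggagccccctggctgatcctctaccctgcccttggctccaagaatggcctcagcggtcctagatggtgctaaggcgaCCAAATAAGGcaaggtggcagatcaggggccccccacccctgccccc
Cnn2 (chr10:79988420-79988599, plus strand): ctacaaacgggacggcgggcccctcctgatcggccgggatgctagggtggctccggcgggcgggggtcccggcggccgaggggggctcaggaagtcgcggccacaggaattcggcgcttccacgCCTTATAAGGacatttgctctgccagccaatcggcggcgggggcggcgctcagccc
The box was present on either strand in 3 of 13 falling members with a promoter window (23.1%), in 3 of 16 not called (18.8%) and in 1.36% of all windows. Actc1, cardiac actin, fell (-1.07 ± 0.33) and so did the calponin Cnn2 (-0.51 ± 0.15), but the call of Actc1 was lost with no minimum level, with no intensity trend, without WT replicate 2, without Evx1as KO replicate 1, without Evx1as KO replicate 2, without Evx1as KO replicate 3, without EVX1 KO replicate 2 and without EVX1 KO replicate 3 and that of Cnn2 with no minimum level, with quantile normalization, with no intensity trend, without WT replicate 1, without WT replicate 2, without Evx1as KO replicate 1, without Evx1as KO replicate 3 and without EVX1 KO replicate 2.

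Intermediate filaments fell in 7 of 17 genes and rose in 0 by limma. Vim, the vimentin of mesenchymal cells, stood at 475 and 332 FPKM in WT and 140.4, 169 and 88.5 FPKM in Evx1as KO (-1.62 ± 0.28, adjusted p = 0.00508). The keratins of simple epithelia Krt8 and Krt18 pair with each other, and Krt8 stood at 1686 and 1385 FPKM in WT and 485, 802 and 615 FPKM in Evx1as KO (-1.30 ± 0.20, adjusted p = 0.00322). Krt18 stood at 1376 and 1166 FPKM in WT and 389, 634 and 561 FPKM in Evx1as KO (-1.29 ± 0.19, adjusted p = 0.00281). In both keratins the highest knockout library was well below the lower WT library. Krt19 (-1.16 ± 0.18, adjusted p = 0.00335) and the nuclear lamin Lmna (-1.14 ± 0.17, adjusted p = 0.00299) fell as well. Markers of other cell types moved with these genes. The summed FPKM of 15 trophoblast markers was 539.5 to 568 in WT and 181 to 275 in Evx1as KO, with 6 of 10 tested called lower and Tpbpa, Prl3d1 and Prl2c2 listed at 0. The sum of 11 surface ectoderm markers was 51.4 to 56.9 in WT and 12.4 to 27.1 in Evx1as KO, with 5 of 7 tested called lower and Krt5 and Trp63 under 1 FPKM. Their part in the fall of keratins was not tested, and in bulk samples fewer cells of a type and less RNA per cell cannot be told apart.

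Junction genes fell more often than they rose: of 39 genes of tight junctions, desmosomes and epithelial splicing 14 fell and 5 rose, and the falls numbered 8 without WT replicate 1. Grhl3, an epidermal transcription factor, stood at 5.79 and 7.61 FPKM in WT and 1.27, 2.73 and 1.99 FPKM in Evx1as KO (-1.38 ± 0.24, adjusted p = 0.00526). F11r, a junctional adhesion molecule, stood at 123 and 104 FPKM in WT and 57.5, 53.4 and 54.5 FPKM in Evx1as KO (-1.03 ± 0.11, adjusted p = 9.35e-04). The knockout libraries of F11r were close to one another, and their mean was 0.484 times that of WT. The desmosomal plaque proteins Dsp (-0.78 ± 0.12) and Jup (-0.74 ± 0.09), the membrane protease St14 (-0.61 ± 0.08) with its inhibitor Spint1 (-0.60 ± 0.10), and the epithelial splicing factor Esrp2 on chromosome 8 (-0.77 ± 0.11) fell less. Against these, Rab25 rose, as described above, and so did the claudin Cldn3 (1.51 ± 0.36), whose call was lost with no minimum level, without WT replicate 2 and without Evx1as KO replicate 3.

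Among called genes of matrix and adhesion, falls outnumbered rises. Of 40 collagens, laminins and matrix glycoproteins 16 fell and 2 rose, with a median of -0.41, and the falls numbered 10 with a minimum of 5 FPKM, 8 without WT replicate 1 and 7 without WT replicate 2. Fibronectin (Fn1) stood at 869 and 670.0 FPKM in WT and 193, 373 and 231 FPKM in Evx1as KO (-1.57 ± 0.24, adjusted p = 0.00296), and the libraries labelled EVX1 KO held it at 768, 769.5 and 707 FPKM. Its receptor subunit Itga5 stood at 92.02 and 91.98 FPKM in WT and 49.03, 50.4 and 44.5 FPKM in Evx1as KO (-0.93 ± 0.08, adjusted p = 5.95e-04). The mean of the knockout libraries was 0.345 times WT for Fn1 and 0.521 times WT for Itga5. Sparc, a calcium-binding matrix protein, stood at 411 and 414 FPKM in WT and 261, 237 and 234 FPKM in Evx1as KO (-0.75 ± 0.08, adjusted p = 8.82e-04). The collagens Col5a1 (-0.90 ± 0.12) and Col12a1 (-1.25 ± 0.18) fell, and Spon1, a secreted matrix protein at low level, rose (1.45 ± 0.18, adjusted p = 0.00153). Of 24 integrin and focal adhesion genes 11 fell and 2 rose, and the falls numbered 6 without WT replicate 1, 3 without WT replicate 2, 6 without Evx1as KO replicate 1 and 6 without Evx1as KO replicate 3. Itgav (-0.58 ± 0.11) and talin 1 (Tln1, -0.38 ± 0.07) were in the core.

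Of 29 matrix proteases and inhibitors 10 fell and 4 rose. Members of the urokinase system fell. Plau, the protease, on chromosome 14, stood at 9.89 and 6.66 FPKM in WT and 2.57, 3.21 and 2.52 FPKM in Evx1as KO (-1.28 ± 0.22, adjusted p = 0.00507), and its receptor Plaur at 92.5 and 67.2 FPKM in WT and 20.5, 33.95 and 22.3 FPKM in Evx1as KO (-1.62 ± 0.23, adjusted p = 0.0026). The procollagen protease Bmp1, also on chromosome 14, stood at 56.1 and 41.5 FPKM in WT and 17.4, 18.9 and 13.8 FPKM in Evx1as KO (-1.49 ± 0.16, adjusted p = 9.87e-04). Mmp14, of the same chromosome, stood at 76.1 and 76.4 FPKM in WT and 50.6, 31.3 and 28.8 FPKM in Evx1as KO (-1.07 ± 0.20, adjusted p = 0.00663), with replicate 1 the nearest to WT. Mmp2 on chromosome 8, which Mmp14 activates, rose (1.09 ± 0.18, adjusted p = 0.00421), and Adam23 rose from 2.16 and 3.44 FPKM in WT to 10.96, 10.4 and 12.6 FPKM in Evx1as KO (1.71 ± 0.17, adjusted p = 7.66e-04). Of 34 genes of heparan sulfate and hyaluronan 9 fell and 3 rose (35.3% called, against 25.4% of all genes). The falls numbered 5 without WT replicate 1, 4 without WT replicate 2 and 5 without Evx1as KO replicate 3. The glypican Gpc3 stood at 85.5 and 50.7 FPKM in WT and 21.6, 21.3 and 23.7 FPKM in Evx1as KO (-1.53 ± 0.20, adjusted p = 0.00183), and the sulfotransferase Chst7 fell (-1.60 ± 0.23).

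Caveolae, annexins and S100 proteins, which bind calcium and membrane lipid, fell in 16 of 30 genes and rose in 1, with a median of -0.61, and the falls numbered 10 without WT replicate 2. Anxa2 stood at 331 and 308 FPKM in WT and 161, 189 and 157 FPKM in Evx1as KO (-0.92 ± 0.09, adjusted p = 9.35e-04), and its partner S100a10 at 993 and 1088 FPKM in WT and 537, 650.5 and 566 FPKM in Evx1as KO (-0.83 ± 0.10, adjusted p = 0.0012). S100a11 stood at 1757 and 1669 FPKM in WT and 861, 1060.5 and 961 FPKM in Evx1as KO (-0.84 ± 0.12, adjusted p = 0.00266). Every knockout library lay well below both WT libraries in all 3 genes. Caveolin 1 (Cav1, -1.13 ± 0.19), cavin 1 (Ptrf, -0.88 ± 0.16), Anxa6 (-0.85 ± 0.13), Anxa5 (-0.79 ± 0.13) and Anxa3 (-0.57 ± 0.10) followed. Set against the WT mean, the list's medians were -0.82, -0.50 and -0.55 in Evx1as KO. They were -0.41, -0.31 and -0.185 in the libraries labelled EVX1 KO.

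**Figure D4:**
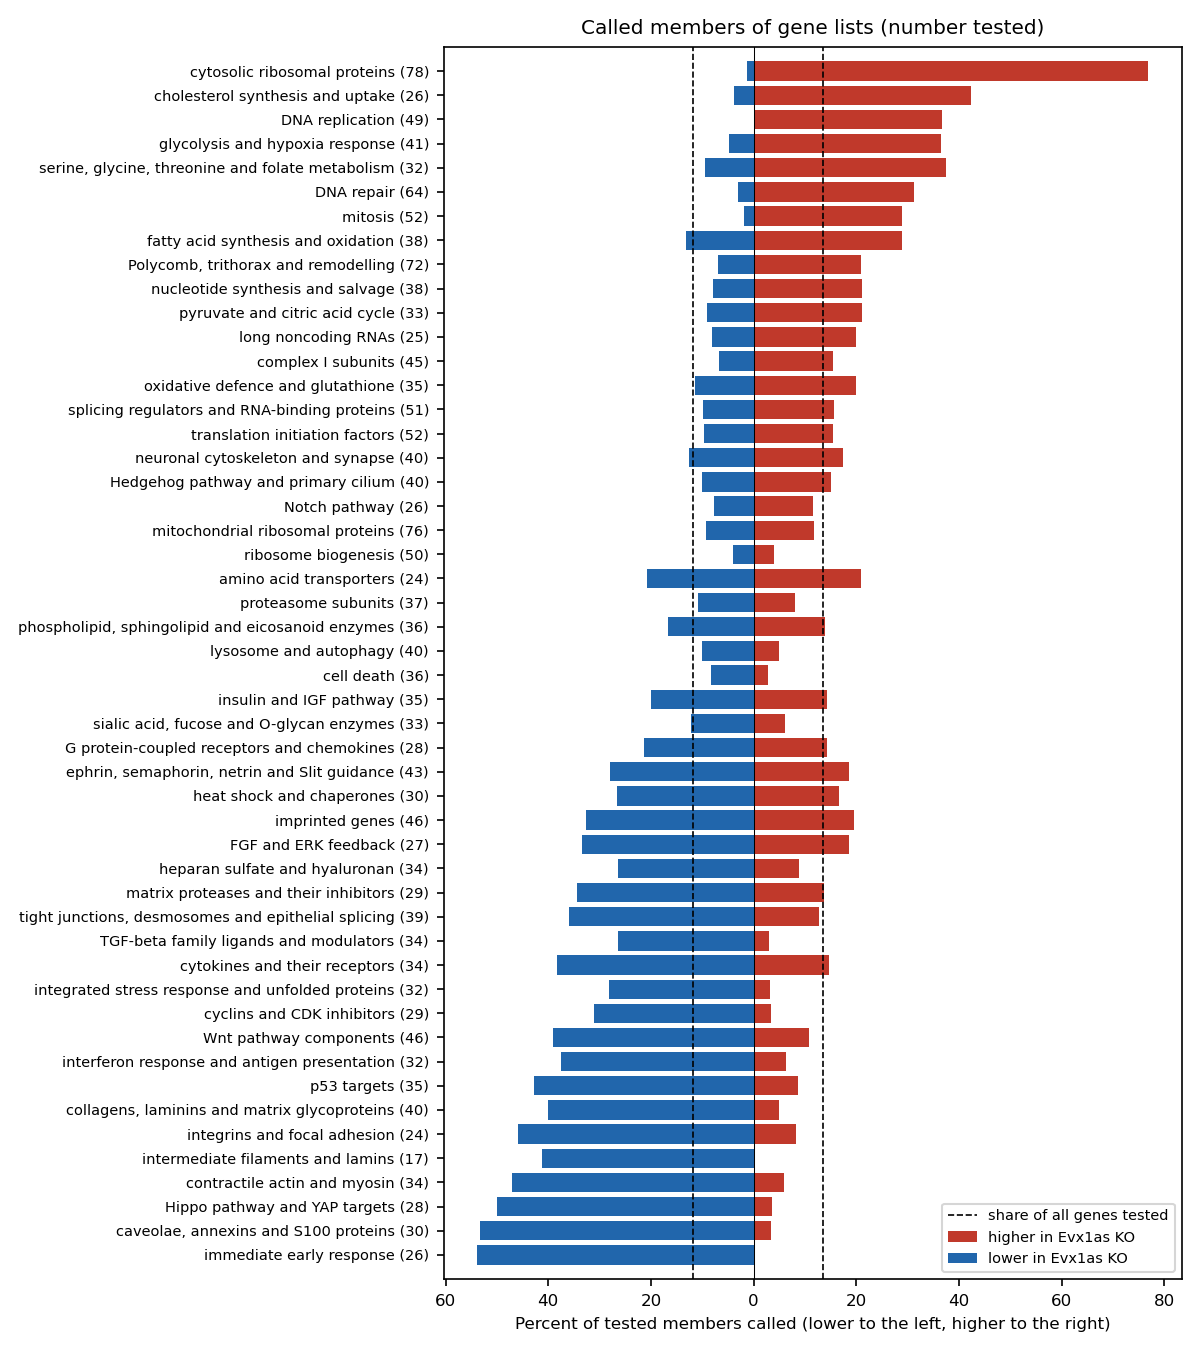
Percent of tested members, by gene list, called lower (blue, to the left) and higher (red, to the right) in Evx1as KO, with the number tested in brackets. Dashed lines mark the shares over all genes tested, 11.8% lower and 13.6% higher. Of the lists drawn, cytosolic ribosomal proteins and cholesterol synthesis reach farthest to the right, and immediate early, annexin, YAP and contractile genes farthest to the left. Lists share members.

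Genes of the immediate early response, which serum and stress induce within minutes, fell in 14 of 26 cases with 0 rises by limma, and a median of -0.46, and the falls numbered 6 without WT replicate 1, 5 without WT replicate 2, 9 without Evx1as KO replicate 1 and 7 without Evx1as KO replicate 3. Ier5 stood at 15.9 and 17.8 FPKM in WT and 5.15, 5.05 and 5.07 FPKM in Evx1as KO (-1.55 ± 0.10, adjusted p = 2.29e-04) and the AP-1 member Fosl2 at 13.97 and 14.2 FPKM in WT and 7.05, 7.11 and 6.58 FPKM in Evx1as KO (-0.93 ± 0.14, adjusted p = 0.00286). Atf3, a stress-induced factor, stood at 25.8 and 24.4 FPKM in WT and 6.94, 9.08 and 3.99 FPKM in Evx1as KO (-1.82 ± 0.31, adjusted p = 0.00465). The knockout libraries of Ier5 were nearly equal, while those of Atf3 ranged more widely below WT. Set against the WT mean, the medians of the immediate early list were -0.47, -0.36 and -0.57 in Evx1as KO. They were -0.445, -0.23 and -0.17 in the libraries labelled EVX1 KO. Ppp1r15a, which reverses the block of translation initiation under stress, fell (-0.86 ± 0.14, adjusted p = 0.00347). Of 32 genes of the integrated stress and unfolded protein responses 9 fell and 1 rose (31.25% called, against 25.4% of all genes). The falls numbered 4 without WT replicate 2 and 5 without Evx1as KO replicate 3. Among 30 heat shock proteins and chaperones 8 fell and 5 rose while the median was 0.06, so the counts and the median point different ways. The small heat shock proteins Hspb1 and Cryab led the falls. Hspb1 stood at 865 and 1041 FPKM in WT and 418, 593 and 406 FPKM in Evx1as KO (-1.03 ± 0.17, adjusted p = 0.00422) and Cryab at 182 and 177 FPKM in WT and 49.7, 73.98 and 79.98 FPKM in Evx1as KO (-1.42 ± 0.18, adjusted p = 0.00165). Inducible Hspa1b (-1.69 ± 0.30) and Hspa1a (-1.24 ± 0.19), near-identical copies whose reads cannot be told apart with certainty, and the collagen chaperones Serpinh1 (-0.70 ± 0.10) and Fkbp10 (-0.92 ± 0.12) fell, and Fkbp5 rose (0.96 ± 0.12).

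Hippo pathway and YAP target genes fell in 14 of 28 cases and rose in 1, and the falls numbered 9 without WT replicate 1 and 8 without WT replicate 2. The scaffold Amot stood at 50.6 and 43.1 FPKM in WT and 9.15, 17.03 and 11.7 FPKM in Evx1as KO (-1.85 ± 0.23, adjusted p = 0.00165) and tissue factor (F3) at 21.3 and 26.4 FPKM in WT and 6.20, 8.36 and 10.5 FPKM in Evx1as KO (-1.43 ± 0.22, adjusted p = 0.00337). The TEAD factors Tead4 (-0.77 ± 0.13) and Tead3 (-0.61 ± 0.12) and their partners Vgll3 (-0.88 ± 0.13) and Vgll4 (-0.80 ± 0.15) fell too. In the libraries labelled EVX1 KO, Amot was at 60.96, 66.1 and 46.4 FPKM, which is at or above WT, and F3 at 8.61, 12.7 and 12.9 FPKM, which is below it.

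Interferon and antigen presentation genes fell in 12 of 32 cases and rose in 2, and the falls numbered 6 with no minimum level, 5 without WT replicate 1, 6 without WT replicate 2, 6 without Evx1as KO replicate 1 and 6 without Evx1as KO replicate 3. Gbp2, an interferon-induced GTPase, stood at 88.04 and 85.9 FPKM in WT and 36.1, 56.6 and 38.6 FPKM in Evx1as KO (-1.002 ± 0.18, adjusted p = 0.00517). Tapbp, which loads peptide on class I molecules, stood at 105 and 97.3 FPKM in WT and 60.9, 63.4 and 59.1 FPKM in Evx1as KO (-0.72 ± 0.13, adjusted p = 0.00584). The immunoproteasome subunit Psmb10 on chromosome 8 fell (-1.07 ± 0.13), whereas Bst2 (tetherin), on the same chromosome, rose from 101 and 69.97 FPKM in WT to 237, 202 and 268 FPKM in Evx1as KO (1.46 ± 0.20, adjusted p = 0.00216). Of 34 cytokines and receptors 13 fell and 5 rose, and the falls numbered 7 without WT replicate 1. Csf1, the growth factor of macrophages, stood at 87.7 and 69.9 FPKM in WT and 16.3, 36.2 and 24.97 FPKM in Evx1as KO (-1.63 ± 0.27, adjusted p = 0.00395). The receptor Tnfrsf12a stood at 131 and 117 FPKM in WT and 51.1, 57.5 and 38.5 FPKM in Evx1as KO (-1.33 ± 0.16, adjusted p = 0.00145). Il6st, the receptor subunit shared by the family of leukemia inhibitory factor, stood at 20.3 and 21.4 FPKM in WT and 12.4, 13.3 and 11.8 FPKM in Evx1as KO (-0.70 ± 0.09, adjusted p = 0.00183), and Il6ra fell with it (-0.81 ± 0.15). Vegfb rose (1.15 ± 0.21, adjusted p = 0.0055). Tnfrsf8 was listed at 0 in all 3 Evx1as KO libraries and at 1.86 and 1.09 FPKM in WT.

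Secreted signals and guidance cues changed in both directions, with more falls. Of 46 Wnt components 18 fell and 5 rose: the ligand Wnt6 stood at 237 and 201 FPKM in WT and 58.1, 75.4 and 43.6 FPKM in Evx1as KO (-1.90 ± 0.20, adjusted p = 9.87e-04) and the antagonist Sfrp2 rose (0.98 ± 0.15). Of 34 TGF-beta family genes 9 fell and 1 rose (29.4% called, near the 25.4% of all genes). The falls numbered 5 with no minimum level, 5 without WT replicate 1, 5 without WT replicate 2 and 4 without Evx1as KO replicate 3. Tgfb2 stood at 19.2 and 18.6 FPKM in WT and 3.57, 6.02 and 3.94 FPKM in Evx1as KO (-1.88 ± 0.18, adjusted p = 7.61e-04) and Tgfb1 at 47.1 and 47.3 FPKM in WT and 17.3, 25.6 and 15.3 FPKM in Evx1as KO (-1.27 ± 0.21, adjusted p = 0.00407). Endothelin 1 (Edn1), a peptide that contracts vessels, stood at 21.98 and 23.2 FPKM in WT and 3.75, 7.80 and 3.31 FPKM in Evx1as KO (-2.06 ± 0.33, adjusted p = 0.00353). In each of these ligands replicate 2 was the highest knockout library and was below both WT libraries. Igfbp4, which holds insulin-like growth factors, stood at 36.2 and 35.9 FPKM in WT and 5.10, 9.93 and 6.27 FPKM in Evx1as KO (-2.24 ± 0.20, adjusted p = 6.18e-04), and the libraries labelled EVX1 KO held it at 61.6, 64.5 and 59.4 FPKM, above WT. Insr on chromosome 8, the insulin receptor, rose (0.83 ± 0.13). Dhrs3, which turns retinal back to retinol, stood at 5.65 and 4.20 FPKM in WT and 25.2, 13.2 and 29.9 FPKM in Evx1as KO (1.94 ± 0.32, adjusted p = 0.00421), opposite to Cyp26a1.

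Of 43 ephrin, semaphorin, netrin and Slit genes 12 fell and 8 rose, and the rises numbered 3 without WT replicate 1 and 5 without WT replicate 2 and the falls 7 with a minimum of 5 FPKM. The semaphorin and growth factor receptor Nrp2 stood at 52.5 and 57.4 FPKM in WT and 14.8, 23.3 and 13.3 FPKM in Evx1as KO (-1.66 ± 0.21, adjusted p = 0.00165). Efna3, a membrane-bound ephrin, stood at 29.4 and 28.4 FPKM in WT and 8.05, 8.15 and 3.69 FPKM in Evx1as KO (-2.03 ± 0.26, adjusted p = 0.00174). Nrp1 on chromosome 8 fell below 0.2 FPKM in each knockout library (-2.06 ± 0.39, adjusted p = 0.00711), and Plxna2, a semaphorin receptor, fell (-1.82 ± 0.18, adjusted p = 8.44e-04). The secreted repellent Slit3 stood at 8.91 and 8.95 FPKM in WT and 27.6, 22.4 and 27.6 FPKM in Evx1as KO (1.43 ± 0.13, adjusted p = 6.87e-04) and Sema4d at 3.96 and 4.93 FPKM in WT and 15.7, 11.5 and 14.6 FPKM in Evx1as KO (1.45 ± 0.18, adjusted p = 0.0017), and both were higher in every knockout library.

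Of 72 Polycomb, trithorax and remodelling genes 15 rose and 5 fell (27.8% called, near the 25.4% of all genes). The rises numbered 2 without WT replicate 1 and 7 without WT replicate 2. They numbered 7 without Evx1as KO replicate 1 and 7 without Evx1as KO replicate 3. The core held the remodeller Chd7 (0.69 ± 0.10) as a rise and Hmga2, an architectural protein, as a fall, from 34.4 and 27.3 FPKM in WT to 13.5, 12.99 and 11.3 FPKM in Evx1as KO (-1.22 ± 0.20, adjusted p = 0.00414). Among RNA-binding proteins, Msi1, a translation repressor of progenitors, stood at 10.9 and 8.35 FPKM in WT and 39.1, 26.8 and 40.9 FPKM in Evx1as KO (1.77 ± 0.20, adjusted p = 0.00114), Rbpms2 at 94.6 and 116 FPKM in WT and 234, 191 and 239 FPKM in Evx1as KO (1.06 ± 0.14, adjusted p = 0.00209) and Hnrnpa1, an abundant splicing factor, at 542 and 455 FPKM in WT and 767, 672 and 778 FPKM in Evx1as KO (0.57 ± 0.10, adjusted p = 0.00526). Zfp36l1, which destabilizes mRNA, fell (-0.86 ± 0.12). The noncoding RNA Malat1, of nuclear speckles, stood at 54.7 and 41.8 FPKM in WT and 7.15, 13.5 and 9.32 FPKM in Evx1as KO (-2.19 ± 0.35, adjusted p = 0.00347), whereas it was at 19.3, 47.8 and 29.9 FPKM in the 3 libraries labelled EVX1 KO. The small nucleolar RNA hosts Snhg6 (1.65 ± 0.12, adjusted p = 2.88e-04) and Snhg11 (1.17 ± 0.17, adjusted p = 0.00286) rose. Among 46 imprinted genes 15 fell and 9 rose, and the falls numbered 8 with no minimum level, 7 without WT replicate 1 and 5 without WT replicate 2. Peg10 stood at 343 and 397 FPKM in WT and 126, 175 and 151 FPKM in Evx1as KO (-1.30 ± 0.13, adjusted p = 8.82e-04), and Calcr rose from under 1 FPKM (1.60 ± 0.19, adjusted p = 0.00143).

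Several functions had a share of calls under the 25.4% of all genes. Of 37 proteasome subunits 3 rose and 4 fell (18.9%), with a median of 0.00. Of 40 lysosome and autophagy genes 2 rose and 4 fell (15.00%), and the proteases Ctsd (-0.74 ± 0.11) and Ctsl (-0.73 ± 0.13) were in the core. Of 36 cell death genes 1 rose and 3 fell (11.1%), with Ripk3 on chromosome 14, the kinase of necroptosis, at 14.1 and 12.5 FPKM in WT and 4.42, 4.84 and 3.20 FPKM in Evx1as KO (-1.48 ± 0.17, adjusted p = 0.00113). Of 218 genes with Zfp symbols, most of which bind DNA, 20 rose and 12 fell (14.7%), and without 1 library at a time the rises ran from 6 to 21 and the falls from 4 to 13, both lowest without WT replicate 2. Solute carriers were closer to the background, with 28 rises and 21 falls among 174 genes (28.2%). Their rises numbered 16 with no minimum level, 15 without WT replicate 1, 10 without WT replicate 2, 17 without Evx1as KO replicate 1 and 16 without Evx1as KO replicate 3, and their falls 11 with no minimum level, 4 without WT replicate 1, 8 without WT replicate 2, 13 without Evx1as KO replicate 1 and 10 without Evx1as KO replicate 3. Of 768 loci without a gene name 75 rose and 53 fell (16.7%).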

How the data were processed

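RNA-seq of 2 WT, 3 Evx1as KO and 3 libraries labelled EVX1 KO at day 4 was used, with groups and replicate numbers from the sample labels. The authors deposited 1 table of FPKM per gene symbol, made from libraries of a TruSeq Stranded kit, per the labels' protocols. CASAVA, TopHat2 2.0.11 and the builds mm10 and mm9 are named without a role, per the submitters' processing notes. The program, annotation and strand setting behind FPKM were not given in the sources used here. Reads of overlapping genes, antisense partners and near-identical copies are therefore uncertain. The table held 38610 symbols, 2660 of them on several lines with identical values that were used once, and 46 tested symbols carried the status LOWDATA. Of 10815 tested symbols matched to RefSeq genes on GRCm38.p6, 12.4% overlapped them in position, so positions are printed as in the deposited table, without a build.

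Genes that reached 1 FPKM in 2 or more of the 5 WT and Evx1as KO libraries were fitted as log2(FPKM + 1) in all 8 libraries with 1 mean per group (limma 3.58.1, R 4.3.3, empirical Bayes with intensity trend, two-sided, no covariates). FPKM was not rescaled. Python 3.11.15, pandas 2.3.3, numpy 2.4.6 and matplotlib 3.10.9 did the rest, and the fit was tested on simulated data with known changes. Motifs were searched in RefSeq promoter windows from 250 bases before to 50 after the start.

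The members and the 54 function lists, 33 symbol families, 5 lineage lists and 8 cell type lists were chosen with earlier results of these data known, so none is independent support. Evx1 and Evx1as were always named. The 15 largest rises and falls among called genes outside the lineage lists, the 10 highest called genes and, per list, called members and those of largest change could be named; those printed were selected from these, mostly of genes whose calls held under every alternative, a choice made after seeing the values, and some eligible genes are not reported here. The 20 alternatives changed the pseudocount, the filter, the scaling, the fit, the replicate block, the chromosomes used and 1 library at a time.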

Additional observations from a re-analysis of the deposited data

How the results depend on the processing

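Both counts of called genes stayed within 1.5 times of 1750 higher and 1512 lower in the 12 alternatives other than leaving out 1 library. These include the fit of only the 5 WT and Evx1as KO libraries. Without 1 library at a time the counts ran from 812 to 1851 higher and from 632 to 1588 lower, with the lowest values without WT replicate 1. With so few libraries the exact number of calls is therefore uncertain. Of 215 named genes, all called, 21 lost the call under at least 1 alternative. They were mostly chosen for calls that held, so this is not the share among all calls. Of all 3262 called genes, 910 kept the call under every alternative that tested them. Under quantile normalization, which gives all libraries the same distribution, Rpl23a and Rpl35, ribosomal protein genes among the highest called, changed sign, to -0.036 and -0.017. The median of all genes was 0.02, and -0.005 under median-ratio scaling and 0.01 under quantile normalization, so no scaling moved it by 0.1.

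For samples with the same replicate number, the correlations of their deviations from the group means ran from -0.10 to 0.07. For samples with different numbers they ran from -0.16 to 0.17. With so few libraries in a group the deviations within it are tied to each other. These values therefore cannot show whether the numbers pair the libraries. With the replicate number as a block, 1411 genes were higher and 1209 lower. Absolute depth is unknown, which leaves changes below about 1 FPKM imprecise.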
